A study of Homo sapiens with 6 samples.

Results

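The genes described here are 10 sensors of nucleic acids and the proteins that act directly with them, read from RNA-seq of PANC-1 cells, a long-established line of human pancreatic cancer. They are the double-stranded RNA sensors IFIH1, DDX58, DHX58, TLR3 and EIF2AK2, the DNA sensor CGAS, the adaptors MAVS and STING1, the RNA-editing enzyme ADAR and the interferon gene IFNE. They were chosen by symbol, as a list of known genes of this system, with earlier results of these data known. All 10 were found among the 20036 genes of the deposited table. DDX58 is the older symbol of RIGI and is the one the table uses.

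The cells had received either a null virus (control) or a lentivirus that knocks down SHMT2, the mitochondrial serine hydroxymethyltransferase, with 3 libraries in each group. Both groups therefore carried a virus, and untransduced cells were not analysed here. The labels give neither the hairpin, nor the time after delivery, nor whether the cells were a clone, a pool or separate cultures, so the p-values refer to spread among libraries and this spread could be purely technical. The question is which of these transcripts differ when SHMT2 is knocked down.

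Cells detect foreign or misplaced nucleic acid with 2 main cytosolic systems. In the first, the helicases RIG-I (encoded by DDX58) and MDA5 (encoded by IFIH1) bind double-stranded RNA and pass the signal to MAVS on the outer mitochondrial membrane. In the second, cGAS binds DNA and makes a cyclic dinucleotide that activates STING at the endoplasmic reticulum. Both lead through the kinases TBK1 and IKK epsilon to interferon genes, and secreted interferon in turn raises many of the sensors through its receptor and JAK kinases. Loss of the cGAS or STING signal is common in tumour cell lines.

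The promoters of 7 of the 10 genes were in a RefSeq table of GRCh38.p14 that holds 250 bases before to 50 bases after each start. DHX58, CGAS and STING1 were the others. The interferon-stimulated response element, searched on both strands as GAAANNGAAA, is a site read by IRF proteins. It was present in the promoters of IFIH1, EIF2AK2 and TLR3, and in 3.57% of the 35116 promoters of the table. A strict NF-kB site, GGGANNTTCC, stood in the promoters of IFIH1 and RIGI, in both at bases -76 to -67, and in 1.61% of all promoters. The gamma-activated site TTCNNNGAA was found in TLR3, and in 7.66% of all promoters. MAVS, IFNE and the 3 promoters of ADAR held none of these letters. The stretches below, 5′ to 3′ on the gene's strand, show how differently these elements are placed in genes whose RNA levels are compared afterwards. Capitals mark the interferon-stimulated response element in the first 3 and the NF-kB site in RIGI. In IFIH1 there were 3 matches. Of these, 2 overlap at -159 to -144 on the strand opposite to the one printed, and 1 lies at -21 to -12 on the printed strand. Only 30 bases around the match are shown for the other 3 genes.
IFIH1 (chr2:162318685-162318854, minus strand, bases -170 to -1): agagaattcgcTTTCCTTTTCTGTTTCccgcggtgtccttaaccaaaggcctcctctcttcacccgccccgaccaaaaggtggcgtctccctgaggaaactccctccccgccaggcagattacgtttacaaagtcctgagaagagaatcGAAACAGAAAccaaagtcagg
EIF2AK2 (chr2:37156977-37157006, minus strand, bases -26 to 4): gggaaggcggagtccaagggGAAAACGAAA
TLR3 (chr4:186069132-186069161, plus strand, bases -24 to 6): cattttttttcaagctttacTTTCACTTTC
RIGI (chr9:32526253-32526282, minus strand, bases -86 to -57): tcatttcctcGGAAAATCCCtgctttcccc

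Of the 10 genes, 8 had enough counts to be tested. IFIH1, DDX58, IFNE, STING1, EIF2AK2 and ADAR rose in the knockdown libraries, CGAS fell, and MAVS was not called. The median log2 fold change of the 8 was 0.52, beside 0.003 over all 12292 genes tested. As the genes were chosen with earlier results of these data known, this median is not independent evidence of a direction. The call is an adjusted p below 0.05 (edgeR quasi-likelihood test, Benjamini-Hochberg adjustment over all genes tested). In this comparison 26.7% of all tested genes were called higher and 25.1% lower, so a single call says little by itself. The calls of STING1, ADAR and EIF2AK2 also changed with several of the settings tried, as given with each gene. The rises that reached 2-fold were those of IFIH1, DDX58 and IFNE. Counting DHX58, 7 of the 10 genes had every knockdown library above every control library, where 31.3% of tested genes did, and CGAS had every knockdown library below, where 30.2% did. DDX58 and IFNE reached the minimum of 0.604 CPM (read counts scaled to a common library size) in 2 control libraries and so entered the test through the knockdown libraries, where they are higher.

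**Figure D1:**
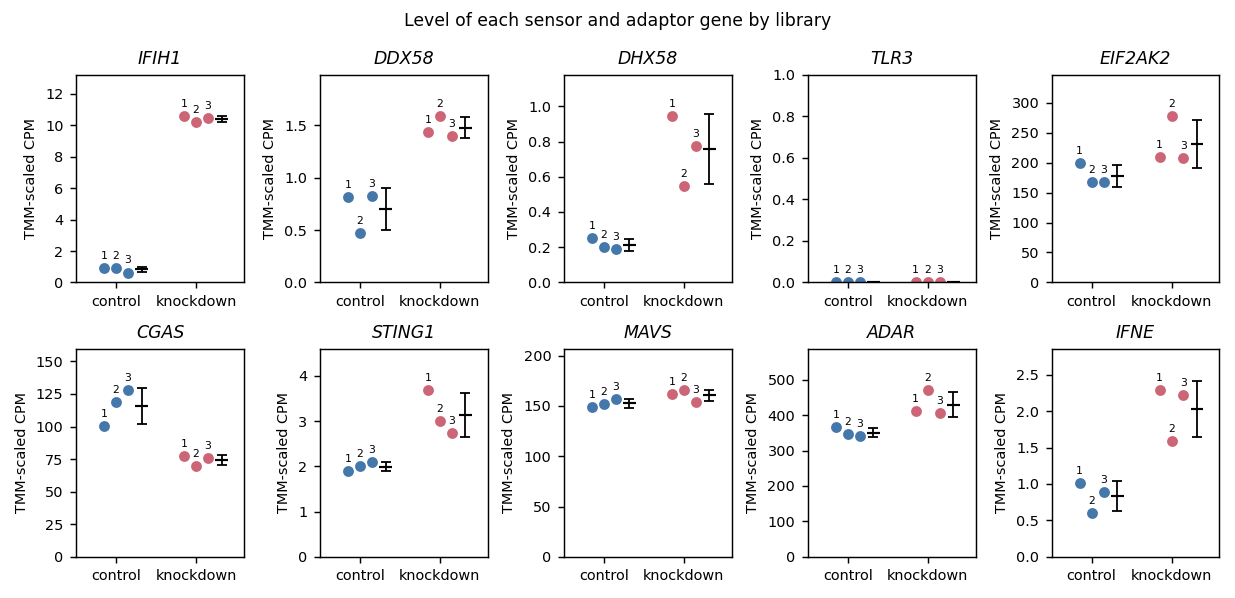
Level of each of the 10 genes in every library, in TMM-scaled CPM (linear axes that start at 0, a separate scale for each gene). Numbered points are the replicates, and the bars to their right are the mean and SD of 3 libraries. IFIH1 went from 0.837 to 10.4 CPM, CGAS from 116 to 74.2 CPM, and TLR3 was at 0 in every library.

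Several features of the libraries bear on these values. SHMT2 itself dropped from a mean of 146 ± 11.4 CPM in control to 5.19 ± 1.74 CPM in knockdown libraries (± SD, 3 libraries each), a log2 fold change of -4.80 (SE 0.23, adjusted p = 1.04e-05). Library totals ran from 15405884 to 19075734 counts. Within the groups, control replicate 1 and knockdown replicate 2 were far from the remaining libraries. The chi-square per gene against them was 20.81 to 60.77, and 1.919 and 2.209 between the remaining pairs. In knockdown replicate 2, 10.42% of counts were mitochondrial, against 4.72% to 6.857% in the other 5. Longer genes were also called higher more often: with tested genes put in 10 equal classes by length, 12.2% of the shortest class and 42.1% of the longest, with median log2 fold changes of -0.275 and 0.274. Of 6 epithelial markers, KRT8, KRT19 and CDH1 rose and EPCAM fell, and KRT8 stood at 947 and 1410 CPM in the 2 groups.

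Per length of gene, the 10 genes fell into an abundant and a scarce set (FPKM, counts scaled by gene length and library total, as the authors computed it). In control cells ADAR stood at 27.8 ± 1.18, CGAS at 26.9 ± 3.10, EIF2AK2 at 15.6 ± 1.68 and MAVS at 12.6 ± 0.274 FPKM (SD, n = 3). IFNE at 0.548 ± 0.138, STING1 at 0.404 ± 0.0179, IFIH1 at 0.156 ± 0.0337, DDX58 at 0.0660 ± 0.0191 and DHX58 at 0.0544 ± 0.00874 FPKM were far lower, and TLR3 was listed at 0. The DNA sensor was thus abundant while its adaptor STING1 was scarce, and the adaptor MAVS was abundant while the helicases that signal through it were scarce. ADAR and CGAS, IFNE and STING1, and DDX58 and DHX58 are neighbours in this order whose control libraries overlap. In the knockdown cells ADAR led at 36.0 ± 1.29 FPKM, followed by EIF2AK2 at 21.5 ± 2.69, CGAS at 18.3 ± 1.78 and MAVS at 14.02 ± 0.417 FPKM. IFIH1 moved from rank 7 to rank 5 of the 10, at 2.05 ± 0.125 FPKM, ahead of IFNE at 1.43 ± 0.325 and STING1 at 0.674 ± 0.117. The table's length for DDX58, 10345 bases, exceeds the 4353 exon bases of GENCODE 29, which lowers its FPKM relative to the others.

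**Figure D2:**
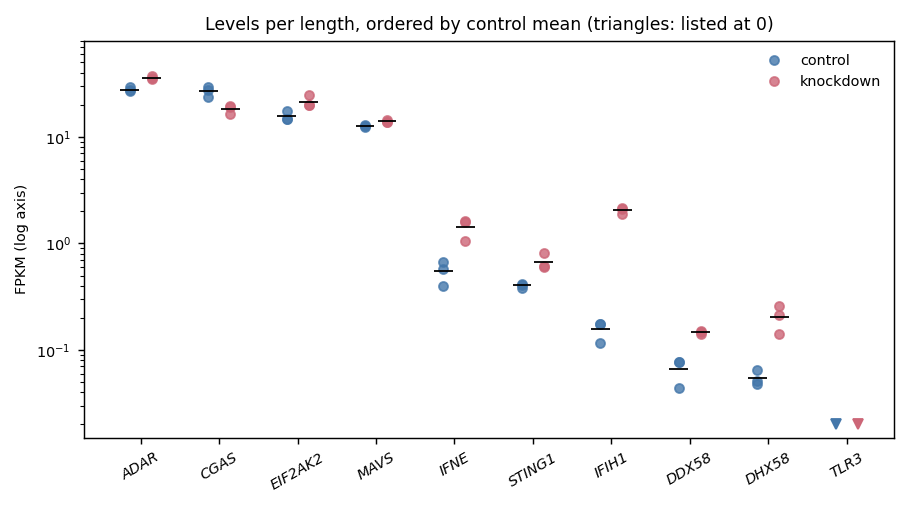
Level of each gene per length, in FPKM on a log axis, ordered by the control mean. Points are libraries, short lines are means of 3 libraries, and triangles mark a gene listed at 0. ADAR, CGAS, EIF2AK2 and MAVS lie above 10 FPKM in both groups, and IFIH1 passes STING1 and IFNE in the knockdown libraries.

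IFIH1 (ENSG00000115267, chromosome 2, 162267074 to 162318684, minus strand) encodes MDA5, the helicase that assembles along long double-stranded RNA. Values are given in the order of replicates 1 to 3 here and below. Control libraries held 15, 14 and 10 counts of it, and knockdown libraries 213, 167 and 202. In CPM these were 0.944, 0.935 and 0.633, and then 10.6, 10.2 and 10.5. The lowest knockdown library was thus many times the highest control library, and the 3 knockdown libraries lay close together, knockdown replicate 2 included. The mean rose from 0.837 ± 0.177 to 10.4 ± 0.195 CPM (± SD, n = 3 libraries), or a log2 fold change of 3.63 (SE 0.19, 95% interval 3.19 to 4.06, adjusted p = 1.36e-05), or 12.4-fold. The 20 nearest tested genes on chromosome 2, 10 on each side, had a median log2 fold change of 0.312, with 10 called higher and 3 lower. IFIH1 kept its call under all 16 alternatives run, at log2 fold changes from 1.40 to 3.75. The lowest is on the log2(FPKM + 1) scale, which understates changes of scarce genes.

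DDX58 (ENSG00000107201, chromosome 9, 32455302 to 32526208, minus strand) encodes RIG-I, which binds short double-stranded RNA with a triphosphate end. It had 13, 7 and 13 counts in the control libraries and 29, 26 and 27 in the knockdown libraries, or 0.818, 0.468 and 0.823 against 1.44, 1.59 and 1.40 CPM. The groups did not overlap, and the level stayed under 2 CPM in each library. The mean rose from 0.703 ± 0.204 to 1.48 ± 0.0997 CPM (± SD, n = 3 libraries), or a log2 fold change of 1.05 (SE 0.28, adjusted p = 0.0153). Without control replicate 2, which had the lowest value, the log2 fold change was 0.83 and the adjusted p 0.0587. Its 20 nearest tested genes had a median of -0.229, with 3 called higher and 8 lower.

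DHX58 (ENSG00000108771, chromosome 17, 42101404 to 42112714, minus strand) encodes LGP2, a helicase of the same family that lacks the signalling domains and modulates RIG-I and MDA5. It was below the minimum for the test, with 4, 3 and 3 counts in the control libraries and 19, 9 and 15 in the knockdown libraries. In CPM these were 0.252, 0.200 and 0.190 against 0.944, 0.550 and 0.777, so each knockdown library was above each control library. The means were 0.214 ± 0.0331 and 0.757 ± 0.198 CPM (SD, n = 3). Fitted with no filter on low counts, its log2 fold change came to 1.80 (SE 0.47, adjusted p = 0.0127). All 3 helicase genes thus had each knockdown library above each control library, where 31.3% of tested genes did. The knockdown mean was 1244% of the control mean for IFIH1, 353.7% for DHX58 and 210% for DDX58. Each control library held at most 15 counts of any of these genes, so the percentages rest on few control reads.

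TLR3 (ENSG00000164342, chromosome 4, 186068911 to 186088073, plus strand), the endosomal receptor for double-stranded RNA, had 0 counts in all 6 libraries. A count of 0 allows a level of up to 0.149 to 0.200 CPM per library (3 counts, counting error only). Its promoter holds a match to the interferon-stimulated response element, as shown above, and no difference was detectable at this depth. TICAM1, the adaptor that TLR3 uses, was present and fell from 15.1 ± 1.33 to 10.7 ± 2.44 CPM (log2 fold change -0.49, adjusted p = 0.0451). The TICAM1 call did not hold without control replicate 2 (adjusted p = 0.141) and in several other settings.

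EIF2AK2 (ENSG00000055332, chromosome 2, 37099210 to 37157522, minus strand) encodes PKR, the kinase that stops translation when it binds double-stranded RNA. It had 3155, 2510 and 2637 counts in the control libraries and 4217, 4544 and 4008 in the knockdown libraries, or 199, 168 and 167 against 210, 278 and 208 CPM. The groups did not overlap, but control replicate 1 came close to knockdown replicates 1 and 3, and knockdown replicate 2 stood above the rest. The mean rose from 178 ± 18.1 to 232 ± 39.9 CPM (± SD, n = 3 libraries), or a log2 fold change of 0.38 (SE 0.14, adjusted p = 0.0493), at the edge of the threshold. The call was lost in 11 of 16 alternatives, among them leaving out knockdown replicate 2 (0.22, adjusted p = 0.0962). Its 20 nearest tested genes had a similar median, 0.349, with 13 called higher and 4 lower. EIF2AK2 is also among the longer genes, its length class had a median of 0.154, and with the length trend removed its value was 0.21 (adjusted p = 0.129). In GENCODE 29 its exons share 35 bases with GPATCH11 and 401 bases with a processed pseudogene on the opposite strand, and the strand setting of the counts is not given in the sources used here.

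CGAS (ENSG00000164430, chromosome 6, 73413515 to 73452297, minus strand) encodes cyclic GMP-AMP synthase, the cytosolic DNA sensor. It was the 1 gene of the 10 that fell. It had 1594, 1783 and 2018 counts in the control libraries and 1555, 1138 and 1466 in the knockdown libraries, or 100.3, 119 and 128 against 77.3, 69.5 and 75.9 CPM. The highest knockdown library was below the lowest control library. The mean fell from 116 ± 13.99 to 74.2 ± 4.14 CPM (± SD, n = 3 libraries), or a log2 fold change of -0.64 (SE 0.11, 95% interval -0.90 to -0.38, adjusted p = 0.00238). The call was kept under all 16 alternatives, at -0.74 to -0.53, but the fall did not reach 2-fold. Its 20 nearest tested genes had a median of 0.294, with 5 called higher and 3 lower. DDX43, on the opposite strand, shares 180 exon bases with it, 4.33% of its exons.

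STING1 (ENSG00000184584, chromosome 5, 139475533 to 139482935, minus strand) encodes the adaptor that cGAS activates. It moved the other way from CGAS at a low level. It had 30, 30 and 33 counts in the control libraries and 74, 49 and 53 in the knockdown libraries, or 1.89, 2.004 and 2.09 against 3.68, 2.99 and 2.74 CPM. The groups did not overlap, and knockdown replicate 1 was the highest. The mean rose from 1.99 ± 0.100 to 3.14 ± 0.483 CPM (± SD, n = 3 libraries), or a log2 fold change of 0.66 (SE 0.20, adjusted p = 0.0242). The call was lost in 6 of 16 alternatives, at adjusted p values up to 0.0955 without knockdown replicate 1.

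MAVS (ENSG00000088888, chromosome 20, 3846799 to 3876123, plus strand) encodes the mitochondrial adaptor of RIG-I and MDA5. It had 2360, 2278 and 2481 counts in the control libraries and 3256, 2709 and 2980 in the knockdown libraries. In CPM these were 149, 152 and 157 against 162, 165 and 154, and the groups overlapped. The means were 153 ± 4.23 and 161 ± 5.69 CPM (± SD, n = 3 libraries), or a log2 fold change of 0.07 (95% interval -0.11 to 0.25, adjusted p = 0.455). The interval leaves out changes as large as those of the helicase genes. MAVS was not called in any of the 16 alternatives.

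ADAR (ENSG00000160710, chromosome 1, 154581695 to 154628013, minus strand) encodes the enzyme that edits adenosine to inosine in double-stranded RNA and so keeps self RNA from MDA5 and PKR. It was the most abundant of the 10, with 5799, 5182 and 5382 counts in the control libraries and 8301, 7690 and 7864 in the knockdown libraries. In CPM these were 365, 346 and 341 against 412, 470 and 407, and the groups did not overlap. The mean rose from 351 ± 12.8 to 430 ± 34.7 CPM (± SD, n = 3 libraries), or a log2 fold change of 0.29 (SE 0.09, adjusted p = 0.0269). ADAR falls in the longest of the 10 length classes, whose median was 0.274, and with the length trend removed its value was 0.10 (adjusted p = 0.303). The call was also lost without control replicate 2, control replicate 3 or knockdown replicate 1. ADAR has an interferon-inducible and a constitutive isoform, and counts per gene cannot tell them apart.

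IFNE (ENSG00000184995, chromosome 9, 21480839 to 21482313, minus strand, a single exon) encodes interferon epsilon, a type I interferon made by epithelia. It had 16, 9 and 14 counts in the control libraries and 46, 26 and 43 in the knockdown libraries, or 1.01, 0.601 and 0.886 against 2.29, 1.59 and 2.23 CPM. The groups did not overlap, and the lowest library of each group was replicate 2. The mean rose from 0.831 ± 0.208 to 2.03 ± 0.387 CPM (± SD, n = 3 libraries), or a log2 fold change of 1.29 (SE 0.28, adjusted p = 0.0067). The call was kept under all 16 alternatives, at 0.64 to 1.59, the lowest on the log2(FPKM + 1) scale. IFNE is in the shortest length class, whose median was -0.275, so it moved against the trend with length.

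The IFNE gene lies in the interferon cluster of 9p21, inside MIR31HG on the same strand, with which it shares 0 exon bases in GENCODE 29. MIR31HG was not analysed here, and reads of unspliced MIR31HG RNA could not be told apart from IFNE reads. Of the 9 neighbours that were present in the table, 4 were tested and 0 were called by edgeR, DESeq2, limma-voom or limma on log2(FPKM + 1), while 1, DMRTA1, had an unadjusted p below 0.05 with edgeR (0.0289). MLLT3 had a log2 fold change of 0.10 (adjusted p = 0.776), KLHL9 of 0.19 (adjusted p = 0.322), FOCAD of -0.16 (adjusted p = 0.177) and DMRTA1 of -0.50 (adjusted p = 0.0545). Some of these calls changed with the setting. KLHL9 was called higher without both libraries that stood apart (0.42). DMRTA1 was called lower without control replicate 2 (-0.63, adjusted p = 0.0463) and without knockdown replicate 1 (-0.64, adjusted p = 0.0492), and FOCAD with the length trend removed (-0.31, adjusted p = 0.0377). HACD4 had 4, 2 and 2 against 5, 8 and 13 counts, and MTAP 8, 6 and 6 against 2, 3 and 3. CDKN2A, CDKN2B and ELAVL2 had 0 counts in all 6 libraries.

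**Figure D3:**
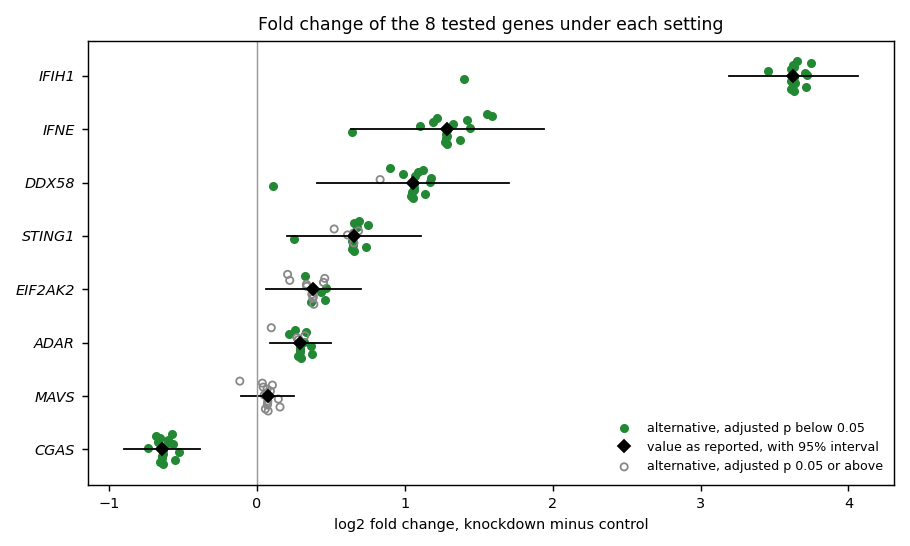
Log2 fold change (knockdown minus control) of the 8 tested genes under the reported analysis (black diamond with its 95% interval) and under 16 alternatives (points). Filled points have an adjusted p below 0.05. The points of IFIH1, IFNE and CGAS are filled throughout, and those of MAVS are open throughout.

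Around these 10 genes, lists of 185 further genes of the same system were followed, by role. Of their 147 tested genes, 36 rose and 35 fell, close to the share over all genes, with a median of -0.012. Over all tested genes 26.7% were called higher and 25.1% lower, the shares to set beside the counts of each list below. These shares are those of the reported analysis. For counts under other settings the share over all genes is not given here. Among 19 tested RNA sensors and effectors outside the 10, 9 rose and 3 fell, with a median of 0.205. IFIT1, which binds RNA without a methylated cap, rose from 3.65 ± 0.218 to 23.7 ± 1.19 CPM (2.70, adjusted p = 8.56e-06), and its partner IFIT3 from 0.364 ± 0.0691 to 4.05 ± 0.70 CPM (3.45, adjusted p = 8.24e-05). IFIT3 was below the minimum of 0.604 CPM in every control library and so entered the test through the knockdown libraries, where it is higher. Such genes are part of the counts that rose in these lists. Of the 12 DNA sensors tested, 2 rose and 3 fell, not far from the shares over all genes. Without both libraries that stood apart 6 and 5 were called, in a fit whose remaining libraries lie close together. MRE11, a subunit of the complex that binds DNA breaks, rose from 47.1 ± 13.9 to 98.9 ± 5.16 CPM (1.07), and XRCC6, the Ku70 subunit, fell from 729 ± 16.5 to 547 ± 13.4 CPM (-0.41).

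Among 20 adaptors and kinases downstream of MAVS and STING, 8 rose and 2 fell, with a median of 0.161. Without control replicate 2, knockdown replicate 1 or knockdown replicate 3, 5 were called higher and 1 lower, and without both libraries that stood apart 12 and 5. TBK1, the kinase on which both pathways meet, rose from 46.5 ± 12.4 to 90.5 ± 8.54 CPM (0.96, adjusted p = 0.00357). Its relative IKBKE, the gene of IKK epsilon, had 3, 7 and 13 counts in the control libraries and 85, 40 and 71 in the knockdown libraries (2.80, SE 0.42, adjusted p = 0.00128). TRAF6, a ubiquitin ligase of these complexes, rose from 13.3 ± 1.42 to 31.4 ± 3.42 CPM (1.23). Of 13 transcription factors, 4 rose and 3 fell, near the shares over all genes. IRF5, an interferon regulatory factor, rose from 0.450 to 2.48 CPM (2.45, adjusted p = 0.000195). IRF5 was below the minimum of 0.604 CPM in every control library, and IKBKE in control replicates 1 and 2. Both therefore entered the test through the knockdown libraries, where they are higher. STAT2 and IRF9, which act after the interferon receptor, were not called. STAT2 stood at 45.9 and 43.8 CPM (-0.07, 95% interval -0.33 to 0.20) and IRF9 at 1.12 and 1.11 CPM (-0.03, 95% interval -0.999 to 0.932). The interval of IRF9 is wide enough to hold a change of nearly 2-fold either way. IRF3, which TBK1 phosphorylates, was at 32.02 and 35.8 CPM (0.16, adjusted p = 0.379), and IRF7 at 3.77 and 3.72 CPM (-0.01, adjusted p = 0.955). IRF3 was called higher without knockdown replicate 2 (0.29, adjusted p = 0.0429) and without both libraries that stood apart (0.23).

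Interferon ligands other than IFNE were nearly silent. None of the 21 listed reached the minimum for the test and 15 had 0 counts in all 6 libraries, IFNB1 among them. IFNA1 had 0, 4 and 5 counts in the control libraries and 1, 0 and 1 in the knockdown libraries, and IFNL1 had 0, 1 and 1 against 0, 2 and 2. Of 11 interferon receptor and JAK pathway genes tested, 3 rose, near the share over all genes, and 1 fell, with a median of 0.269. Without control replicate 2 or control replicate 3, 1 was called higher, and without both libraries that stood apart 5. IFNAR2, a chain of the type I receptor to which interferon epsilon binds, rose from 2.14 to 4.32 CPM (1.01, adjusted p = 0.0052), and SOCS3, an inhibitor of JAK kinases, fell from 106 to 54.7 CPM (-0.96, adjusted p = 0.00194).

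Genes that tune the helicases, STING and PKR were called in both directions. Of 23 tested regulators of the RNA helicases and MAVS, 4 rose and 6 fell, shares near those over all genes, with a median of -0.21. With library totals alone, and on log2(FPKM + 1), 5 were called higher and 4 lower. TRIM38, a ubiquitin and SUMO ligase, rose from 0.662 ± 0.245 to 8.59 ± 0.884 CPM (3.68, adjusted p = 3.81e-05), and the ubiquitin ligase SMURF2 fell from 102 to 53.1 CPM (-0.94, adjusted p = 0.00108). TRIM38 was below the minimum of 0.604 CPM in control replicates 2 and 3 and so entered the test through the knockdown libraries. Of 23 genes of STING trafficking and cyclic dinucleotide handling, 2 rose and 8 fell, with a median of -0.187. The count called higher was 0 without control replicate 2 and 1 without control replicate 1, control replicate 3, knockdown replicate 1 or knockdown replicate 3. Without both libraries that stood apart, 5 were called higher and 12 lower. SLC19A1, the reduced folate carrier that also imports cyclic dinucleotides, fell from 41.4 ± 1.99 to 14.96 ± 1.42 CPM (-1.47, adjusted p = 6.28e-05). LRRC8B, from the family of volume-regulated channel subunits, fell from 102 to 60.4 CPM (-0.76, adjusted p = 0.000671).

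Of 13 genes that regulate PKR or act at its target eIF2 alpha, 1 rose and 8 fell, with a median of -0.376, the lowest of the lists. Over all tested genes 26.7% were called higher and 25.1% lower. The count called higher was 2 without knockdown replicate 2 and 3 without both libraries that stood apart, where 9 were called lower. The 8 that fell include the genes of all 5 subunits of EIF2B, the exchange factor that phosphorylated eIF2 alpha blocks, which were singled out after their values were seen. EIF2B5 fell from 138 to 75.1 CPM (-0.88, adjusted p = 0.000581), while PPP1R15B, which directs the removal of that phosphate, rose from 149 to 203 CPM (0.44, adjusted p = 0.0023). Of 13 tested enzymes that limit self RNA and DNA, as ADAR does, 3 rose and 1 fell, with a median of -0.099. The count called lower was 0 without control replicate 2, control replicate 3, knockdown replicate 1 or knockdown replicate 3, and 3 without both libraries that stood apart. SAMHD1, which degrades deoxynucleotides, rose from 23.0 to 32.6 CPM (0.50) and the lysosomal nuclease DNASE2 from 17.7 to 29.6 CPM (0.74).

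**Figure D4:**
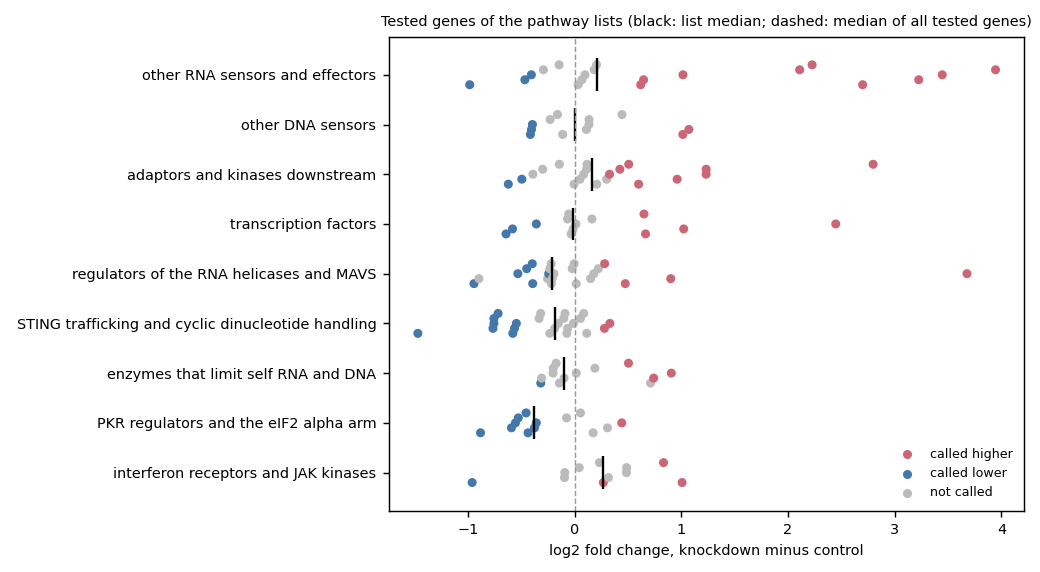
Log2 fold change (knockdown minus control) of each tested gene in 9 lists around the 10 sensors and adaptors. Black lines are list medians and the dashed line is the median of all tested genes. The other RNA sensors reach 3.94 (IFIT2), while most eIF2 alpha genes lie below 0.

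The genes whose profile over the 6 libraries lay nearest to that of IFIH1, by Euclidean distance of centred log2(CPM + 1) values, were LAMA3 at 0.15, MAN1A1 at 0.232 and TSPYL5 at 0.233. Their log2 fold changes were 3.91, 2.92 and 2.86, and large rises follow from choosing genes by likeness to IFIH1 over the same libraries. LAMA3 was below the minimum of 0.604 CPM in control replicate 3 and so entered the test through the knockdown libraries. LAMA3 encodes a laminin chain and MAN1A1 a Golgi mannosidase, and neither is a member of the lists above.

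Markers of leukocytes, in which many of these sensors are abundant, were low. The 10 leukocyte markers summed to between 2.61 and 3.80 CPM in the control libraries and between 3.28 and 3.73 CPM in the knockdown libraries, with TYROBP and LYZ at 0 in all 6. Of the 2 tested, CD14 rose from 1.19 ± 0.425 to 2.37 ± 0.673 CPM (0.99, adjusted p = 0.0366) and LAPTM5 fell from 1.24 ± 0.0791 to 0.344 ± 0.369 CPM (-1.91, adjusted p = 0.0442). The knockdown mean of LAPTM5 was below the minimum of 0.604 CPM, so LAPTM5 entered the test through the control libraries, where it is higher. Markers of plasmacytoid dendritic cells, the main interferon producers of blood, summed to at most 1.65 CPM, with CLEC4C, LILRA4 and GZMB at 0. The 6 endothelial markers summed to 0.506 to 0.692 CPM in the control libraries and to 5.91 to 7.30 CPM in the knockdown libraries, and KDR was the 1 tested and rose (4.55). Even summed, these markers were below the minimum of 0.604 CPM in control replicate 3. KDR therefore entered the test through the knockdown libraries, where it is higher. The 8 fibroblast markers, mostly COL1A1, summed to 81.1 to 95.1 and then 47.9 to 51.3 CPM, with COL1A2, DCN and FAP at 0. Of the 2 tested, COL1A1 fell (-0.92) and COL3A1 rose from 2.39 ± 0.393 to 5.10 ± 1.19 CPM (1.10). The part of these shifts in the values above was not tested. In bulk RNA, fewer cells with a transcript and less of it per cell cannot be told apart.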

How the data were processed

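TRIzol RNA of 3 control and 3 knockdown samples of PANC-1 cells was turned into libraries by an NEBNext Ultra II kit, per the labels' protocols. Per the file headers, the deposited table holds raw read counts for each gene together with gene length. The authors also deposited FPKM, which equals each count divided by that length and by the total of its column. The aligner, counter, build, annotation and strandedness were not given in the sources used here. Gene coordinates are copied from the deposited table. Symbols were matched directly, with SKIC2, SKIC3 and RIGI read under the older names the table uses. Of the genes, 629 had no symbol and 3573 had 0 counts in all libraries. There were 0 columns of other samples.

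Samples were grouped by their titles. The test was edgeR 4.0.16 under R 4.3.3 (counts filtered by filterByExpr at 0.604 CPM in at least 3 libraries, TMM factors, quasi-likelihood fit without covariates, Benjamini-Hochberg adjustment over 12292 genes). The biological coefficient of variation was 14.2%. Standard errors came from the F statistic, and levels are TMM-scaled CPM. The script was tested on simulated data. Alternatives were other factors (RLE, upper quartile, none), no filter, DESeq2 1.42.0, limma-voom and limma 3.58.1 on log2(FPKM + 1), the replicate block, each library left out in turn, control replicate 1 and knockdown replicate 2 left out together, and a 2-fold minimum. Removal of the gene-length trend, by a smooth curve per library added to the offsets, was chosen after seeing the data. The 16 alternatives counted for each gene include this removal and leave out the 2-fold minimum.

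The 10 genes, the lists and the alternatives were chosen with earlier results of these data known, so none is independent evidence of a direction. Named genes are SHMT2, the 10 genes, the 2 called genes of smallest adjusted p in each list (where fewer than 2 are called, the 2 of highest level), IFNE neighbours with any count, the 3 nearest profiles to IFIH1, and STAT2, IRF9, IRF3, IRF7, TBK1, IKBKE, TICAM1 and IFNB1. The result of 1 further gene of this rule is not reported here. Promoter sequences are RefSeq's, on GRCh38.p14. Overlaps of exons were read from GENCODE 29.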

Additional observations from a re-analysis of the deposited data

How the results depend on the processing

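Of the 10 genes, 6 were called higher and 1 lower. The count called higher was 3 with the replicate block, 3 with a 2-fold minimum and 3 to 6 with each library left out in turn (3 without control replicate 2 and 3 without knockdown replicate 1). Without control replicate 2 the 3 were IFIH1, IFNE and DHX58, the last not tested in the reported analysis. The count called lower was 0 with a 2-fold minimum. The list genes called higher, 36, became 16 and those called lower, 35, became 1 with that minimum. Without control replicate 1 and knockdown replicate 2 together they were 57 and 53, and 7 of the 10 genes were called higher, DHX58 included. The libraries left in that fit differed by a chi-square per gene of 1.919 in control and 2.209 in knockdown, so its calls rest on a small spread. The share of all genes called in it, or in the other alternatives, is not given here to set beside these counts. DHX58 was below the minimum in every control library. It was also called higher with control replicate 1, 2 or 3 or knockdown replicate 2 left out in turn, and with no filter. Those counts of the 10 genes therefore include DHX58. In each of these fits that used the filter, it entered through the knockdown libraries, where it is higher. IFIH1, CGAS and IFNE kept their calls under the 16 alternatives, DDX58 lost its call in 1, ADAR in 5, STING1 in 6 and EIF2AK2 in 11; the cause was not tested. With the length trend removed, MAVS was at -0.12, MLLT3 at -0.0004 and IRF7 at 0.15. With library totals alone STAT2 was at 0.0202, IRF9 at 0.0449 and IRF7 at 0.0741. On log2(FPKM + 1) the same genes were at 0.0146, 0.0079 and 0.0335. With each library left out, MLLT3 ran from -0.13 to 0.35, IRF9 from -0.42 to 0.28 and IRF7 from -0.11 to 0.11, and without both libraries that stood apart IRF7 was at 0.0947. Deviations of same-numbered libraries correlated at -0.39, -0.374 and 0.407. The highest value of all pairs was 0.519, between control replicate 1 and knockdown replicate 2. These are the libraries that stood apart, so the correlations cannot tell whether the replicate numbers pair the samples. The planned comparison of protein sequences was not run. Genes of 3 to 50 counts per library, such as DHX58, DDX58 and IFNE, are limited by depth.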
